A study of Bos taurus with 20 samples.

Results

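In bovine satellite cells moved to low serum, 139 genes lost at least 50% of their starting level by 72 h and then rose again by at least 1.5-fold on the last day without regaining the start. They are 139 of 14636 genes that passed a filter on low counts, in a table of 27607 genes. The members were chosen on their measured levels, as mean CPM (counts scaled to a common library size) per time point, with library sizes scaled by the trimmed mean of M-values (TMM) and 0.1 added to each mean. A member had at least 2 at 0 h, at most 0.5 times that level at 72 h, at least 1.5 times its 72 h level at 96 h, and a 96 h level below 0 h and below 2 times 24 h. Its 24 h level was also below 2 times 0 h. The level at 48 h was not used for the choice.

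The cells were satellite cells from the Belgian Blue breed of cattle. At 0 h they were growing on collagen in medium with 20% fetal bovine serum, and the groups at 24, 48, 72 and 96 h had been switched to medium with 2% serum. Each group had 4 biological replicates, A and B in batch 1 and C and D in batch 2 per the labels, which makes 20 libraries of polyA RNA. The sources used here do not say how many animals the cells came from, whether replicates were separate isolates, or whether the low-serum medium was renewed. The p-values therefore measure only the spread between these libraries.

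Satellite cells are the resident stem cells of skeletal muscle. Growth factors in serum keep them dividing, and on withdrawal they leave the cell cycle, switch on the myogenic programme and fuse into myotubes. Such cultures commonly hold fused myotubes beside mononuclear cells that have not fused. A bulk RNA level averages over all of them, so fewer cells of a type and less RNA per cell cannot be told apart in the values below.

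The table names genes by Ensembl cattle identifiers alone, and the gene table used with it held 0 of them. Members are therefore described by their levels, without symbols, functions, positions or sequences, and neither the lists of muscle, cell cycle, matrix and signalling genes nor the markers of satellite cells and of other cell types could be applied. The labelled cell type was thus not checked against its markers. Total counts ranged from 21100797 to 41998509 per library. In the members, replicate D lay apart from the other replicates at 24 h and at 96 h, and replicates C at 24 h and A at 48 h were often lowest, as given below.

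The typical member dropped steeply on the first day, more slowly over the next 2 days, and then regained part of the loss. In each library, the level of every member was taken as a percentage of its own 0 h mean, and the median over the 139 members was read. At 24 h this median was 55.7% in replicate A, 53.1% in B, 50.5% in C and 62.5% in D. At 48 h it was 34.8%, 36.4%, 35.3% and 35.1% in the same order. These 4 libraries lay close together, and all of them lay below all 4 at 24 h.

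At 72 h the median stood at 24.8% in replicate A, 25.7% in B, 26.5% in C and 27.0% in D. At 96 h it was 46.3%, 48.1%, 48.5% and 36.9% in the same order. Replicate D was thus the lowest library on the last day, while it had been the highest at 24 h, and the 4 libraries at 96 h still lay above the 4 at 48 h. As means over libraries, the median level was 55.5 ± 5.17% after 24 h, 35.4 ± 0.681% after 48 h, 26.0 ± 0.940% after 72 h and 45.0 ± 5.45% after 96 h (n = 4 each, ± SD). The fall to 72 h and the rise at 96 h are what the rule asked for and are given as a description. The median over all genes tested stayed within 0.05 of 0 on the log2 scale in every library. TMM scaling tends to bring this median near 0, so it is no separate sign that most genes were steady. With library sizes alone, the median log2 change over all genes from 24 h to 48 h was -0.32.

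**Figure D1:**
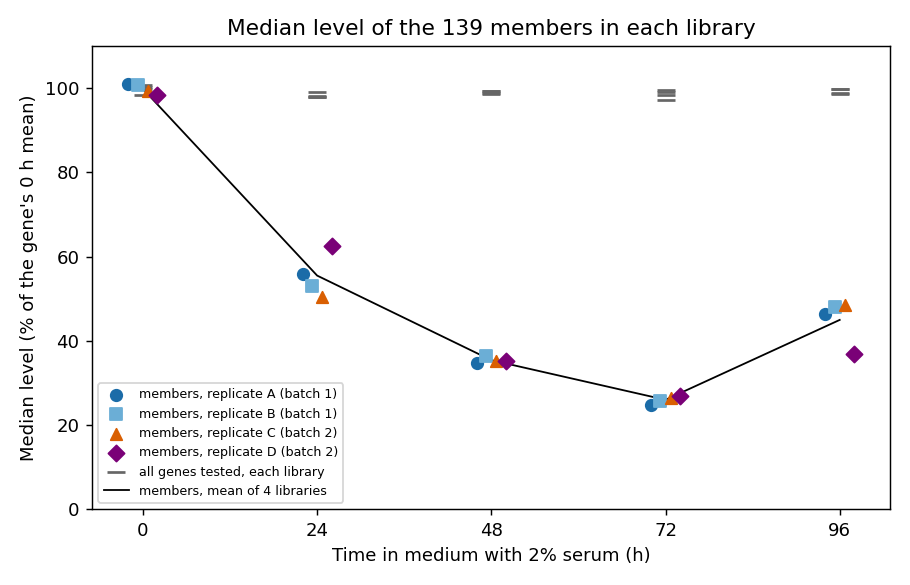
Median level of the 139 members in each library, as a percentage of each gene's 0 h mean (y axis), against time in low serum (x axis, h). Points are libraries, the line is the mean of 4 libraries, and grey marks are the median of all genes tested after TMM scaling. Replicate D is the highest library at 24 h (62.5%) and the lowest at 96 h (36.9%).

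The separate position of replicate D was spread over many members. At 96 h it was the lowest of the 4 libraries for 101 of 139 members, against 25.5% of all genes tested. It was the highest for 2, against 27.1%. At 24 h it was the highest library for 94 of 139 members, against 35.2% of all genes. At 48 h it was the highest for 42, against 21.3% of all genes, and the lowest for 24, against 22%. At 72 h it was the highest for 36, against 22.7%, and the lowest for 29, against 22.4%. Replicate D was thus not at one end in most members at those times. Replicate C at 24 h was the lowest library for 73 members, against 24.6% of all genes, and the highest for 9, against 27.5%. Replicate A at 48 h was the lowest for 60, against 28.1%. Total counts of replicate D at 96 h were 34473917, inside the range of the other libraries of that time point, and its TMM factor was 0.858, against 0.837 to 0.861 in the others. What sets this library apart was not tested. Without replicate D at 96 h the rule found 169 genes, and without replicate D at both 24 h and 96 h it found 166, of which 129 are among the 139.

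Summed over the members, 6428 ± 298 CPM at 0 h became 2457 ± 318 CPM after 24 h, 1791 ± 103 after 48 h, 1312 ± 36.5 after 72 h and 2359 ± 387 after 96 h (n = 4 each, ± SD). The sum was carried by a few abundant genes. The 14 members with at least 100 CPM at 0 h held 73.3% of it at 0 h and 66.9% at 96 h. Without them, the other members summed to 1713 ± 36.4 CPM at 0 h, 1020 ± 98.1 after 24 h, 671 ± 23.0 after 48 h, 446 ± 10.8 after 72 h and 781 ± 83.1 after 96 h, the same order of time points. As a share of all raw counts, the members held 0.725 ± 0.0179% before the switch, 0.118 ± 0.00317% after 72 h and 0.201 ± 0.0336% after 96 h (n = 4 each, ± SD).

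The 139 members did not disappear at 72 h. Their median level was 8.10 CPM at 0 h, 4.45 after 24 h, 3.25 after 48 h, 2.39 after 72 h and 4.19 CPM after 96 h. At 72 h, 0 of 139 had no counts, the fewest over the 4 libraries was 9 and the median 255. At that time 65 members were at or under 25% of 0 h and 11 at or under 10%, so "lost" in the sense of near silence holds for few of them. The mean level over all libraries was under 5 CPM for 71 members, and 40 were under 1 CPM at 72 h, where a 1.5-fold rise rests on few reads.

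How much came back varied widely between members. The share of the fall from 0 h to 72 h that was regained at 96 h ran from 0.604% to 96.7%, with a median of 27.4%. It was under 25% in 65 members, 25 to 50% in 46 and 50% or more in 28, and 5 members regained at least 90%. In the group that regained least, the median member was at 40.8% of its 0 h level after 24 h, fell to 14.6% by 72 h and rose to 27.4% by 96 h. The members that regained most had lost less beforehand, with medians of 77.1% after 24 h, 42.5% after 72 h and 77.2% after 96 h. Part of this order follows from the arithmetic, since a given fold rise returns a smaller share of a deeper fall. The fold itself differed less, with a median 96 h/72 h ratio of 1.62 in the first group, 1.69 in the second and 1.86 in the third.

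**Figure D2:**
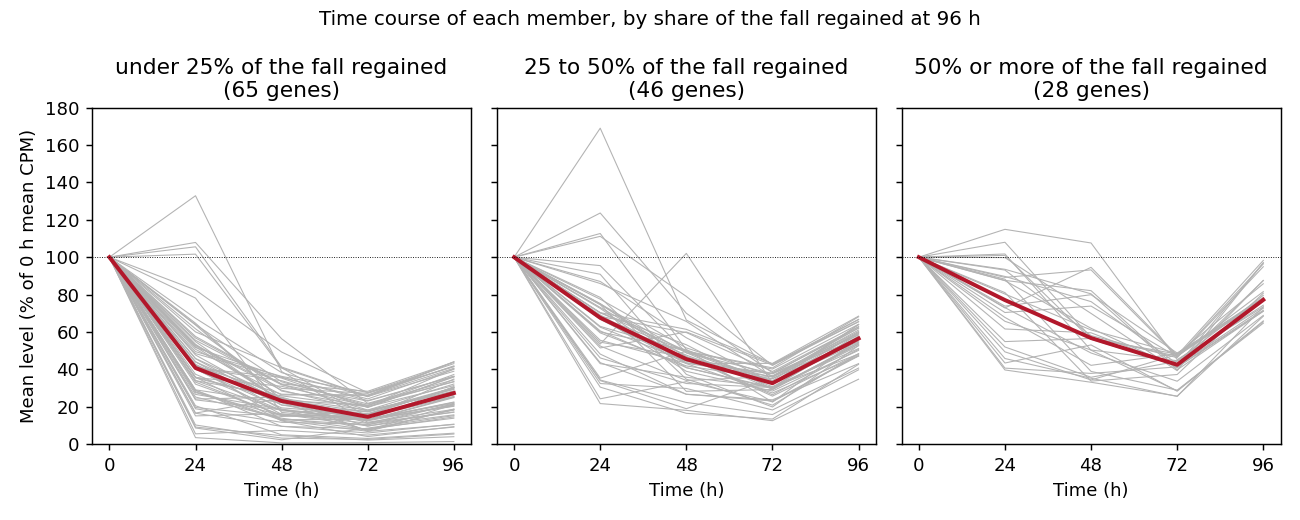
Mean level of each member (grey lines) as a percentage of its 0 h mean CPM (y axis) against time in h (x axis), in 3 panels by the share of the fall regained at 96 h, with the median in red. The median at 96 h is 27.4%, 56.5% and 77.2% of 0 h from left to right.

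Other features of the courses also divided the members. At 24 h, 57 of 139 had already reached 50% of their 0 h level or less, and their median was 14.6% at 72 h and 28.5% at 96 h. In the other 82 members the medians were 33.0% and 59.1%. The median ratio of 96 h to 72 h was 1.73 and 1.66 in these groups. Across the 139 members, the log2 changes of the first and the last day share no library. They had a Pearson correlation of -0.09 and a Spearman correlation of -0.10. The rule used the levels at 0, 24, 72 and 96 h and so limits both changes. The correlations are given as a description over genes that come from the same libraries, and nothing is read from them.

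A set of 12 members stood at or above their 0 h level at 24 h, between 101% and 169% of it. Their median was 110% after 24 h, 56.3% after 48 h, 33.4% after 72 h and 63.8% after 96 h. Their loss thus came after 24 h, which follows from choosing them for a high 24 h level within a rule that asks for a loss by 72 h. The lowest of the 5 time means fell on 72 h for 123 members, on 48 h for 14 and on 24 h for 2.

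Of the members with a mean of at least 5 CPM, 4 are named, the first 2 by the ratio of 96 h to 72 h and the first 2 of the others by the depth of the fall. ENSBTAG00000039719 had 277, 307, 269 and 235 CPM in replicates A to D at 0 h. At 24 h it held 66.9, 64.6, 53.0 and 52.0 CPM, and at 48 h 51.2, 62.2, 45.6 and 38.1 CPM. At 72 h the values were 45.8, 38.3, 31.4 and 21.4 CPM, and at 96 h 136.8, 94.8, 91.4 and 55.0 CPM.

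Every library of ENSBTAG00000039719 at 96 h thus exceeded every library at 72 h, and replicate D was the lowest at all 5 time points. Its mean ratio of 96 h to 72 h was 2.76, after which it stood at 34.8% of 0 h. The step from 24 h to 48 h, where the libraries overlapped, had a log2 change of -0.27 ± 0.17 SE and did not pass the test (edgeR quasi-likelihood test, adjusted p = 0.164). Its level was lower in batch 2 than in batch 1 over all times, with a log2 difference of -0.46 ± 0.10 SE (edgeR adjusted p = 0.00693). That difference between batches is not used by the rule.

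ENSBTAG00000006326 had 138, 123, 120 and 125 CPM in replicates A to D at 0 h and 54.6, 51.7, 42.8 and 52.2 CPM at 24 h. At 48 h it held 34.9, 43.6, 46.6 and 42.9 CPM, and at 72 h 31.9, 35.6, 37.3 and 25.7 CPM. At 96 h the libraries were at 105.8, 89.8, 94.6 and 56.6 CPM. All 4 exceeded those at 72 h, with D again lowest, and the mean reached 68.4% of 0 h. From 24 h to 48 h the log2 change was -0.26 ± 0.15 SE (edgeR adjusted p = 0.146), and between the batches the level differed by -0.11 ± 0.10 SE (edgeR adjusted p = 0.432). Both of these genes were called lower at 48 h with library sizes alone, where the log2 changes were -0.57 and -0.56 (adjusted p by edgeR = 0.0048 and 0.00259) at a median of -0.32 over all genes. Without replicate D at 96 h, ENSBTAG00000006326 was also called, at -0.26 (edgeR adjusted p = 0.0378).

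ENSBTAG00000017461 had the deepest fall of the eligible members after ENSBTAG00000035706 and came back little. It had 109, 136, 112 and 95.7 CPM in replicates A to D at 0 h, and 12.1, 11.2, 8.66 and 9.52 CPM at 24 h. At 48 h it held 5.17, 5.77, 5.04 and 4.73 CPM, all below 24 h. At 72 h the values were 2.98, 2.94, 2.53 and 1.59 CPM, and at 96 h 6.75, 3.91, 3.97 and 3.62 CPM, so that replicate A was well above the other 3. The mean at 96 h was 4.04% of 0 h. From 24 h to 48 h its log2 change was -1.01 ± 0.13 SE (edgeR adjusted p = 6.89e-07). It too was lower in batch 2, by -0.33 ± 0.08 SE (edgeR adjusted p = 0.00888).

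ENSBTAG00000035706 came closest to a loss. It had 31.8, 34.1, 27.4 and 29.6 CPM in replicates A to D at 0 h and 0.883, 1.02, 0.612 and 1.83 CPM at 24 h. At 48 h it held 0.336, 0.214, 0.0988 and 0.236 CPM, followed after 72 h by 0.354, 0.271, 0.0954 and 0.319 CPM, and after 96 h by 0.562, 0.559, 0.113 and 0.541 CPM. Replicate C at 96 h overlapped the 72 h libraries, which held 30 counts in all, and the mean ratio of 1.51 lay at the edge of the rule. The step from 24 h to 48 h was -2.20 on the log2 scale ± 0.38 SE (edgeR adjusted p = 2.95e-05). No difference between the batches passed the test, at -0.16 ± 0.17 SE (edgeR adjusted p = 0.525).

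**Figure D3:**
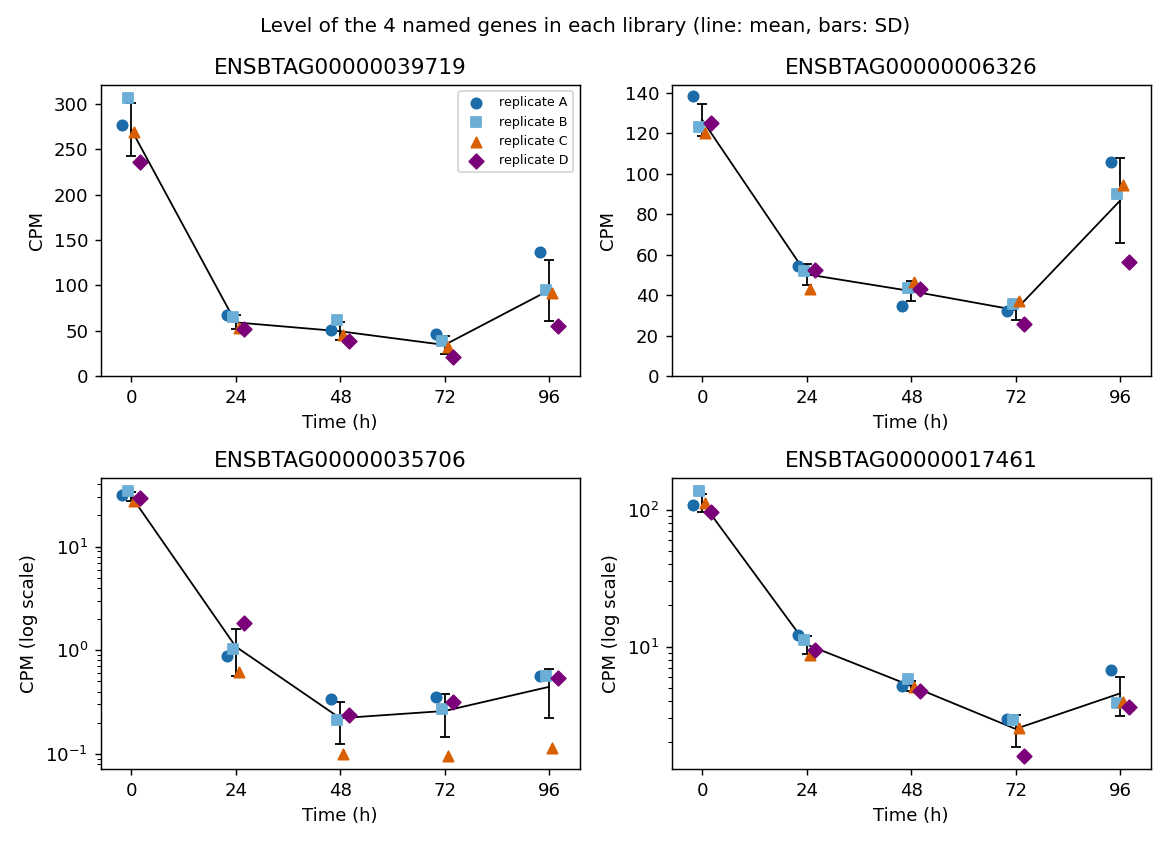
Level of the 4 named genes in CPM (y axis, linear from 0 in the upper panels and logarithmic in the lower panels) against time in h (x axis), with 1 point per library (set apart sideways for legibility), the mean as a line and the SD as bars (n = 4). In the upper panels the 96 h libraries lie above all 72 h libraries, with replicate D lowest at 55.0 and 56.6 CPM.

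The step from 24 h to 48 h asked whether the members kept falling on the second day. The rule did not use 48 h, but it bounded 24 h and required a loss by 72 h, so a fall in this step is partly built into the choice. Of 139 members, 101 (72.7%) fell, 6 (4.32%) rose and 32 did not pass the test (edgeR quasi-likelihood test, adjusted p under 0.05 over all genes). Among all genes tested, 31.9% fell and 31.4% rose in this step. The members' median log2 change was -0.67, with quartiles of -1.02 and -0.38, against -0.03 over all genes. In 83 members (59.7%) all 4 libraries at 48 h lay below all 4 at 24 h, where 27.4% of all genes did.

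**Figure D4:**
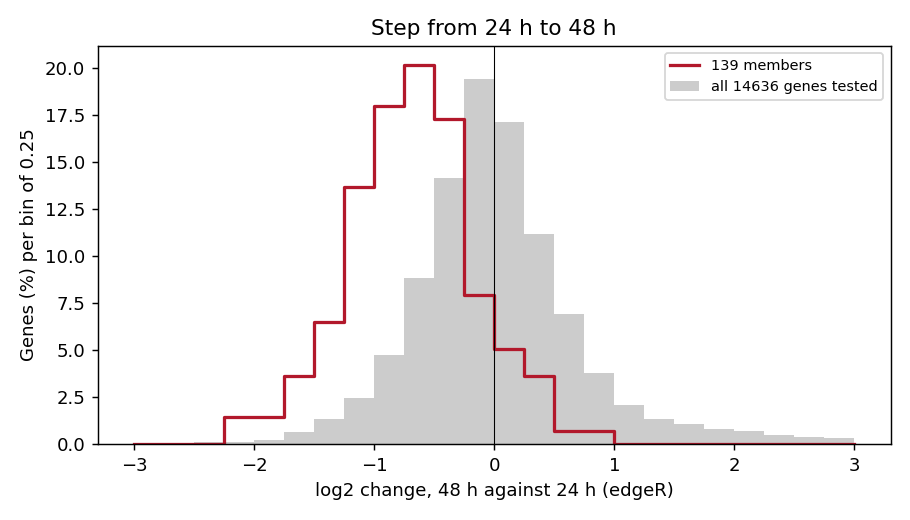
Share of genes (y axis, %) by log2 change from 24 h to 48 h (x axis, bins of 0.25 between -3 and 3) for the 139 members (red line) and all genes tested (grey bars). The members' median is -0.67 and that of all genes -0.03.

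A fall on the second day was also common in genes with the same loss that were outside the rule. A further 1907 genes met the same start and fall conditions and were not members. Of these, 1671 (87.6%) fell from 24 h to 48 h and 30 (1.57%) rose, with a median of -0.70. The shares of 72.7% and 87.6% were not compared by a test. Over the 2046 genes with that fall, the 96 h/72 h ratio had a median of 1.01 and quartiles of 0.873 and 1.18. The 139 members are 6.79% of them, from the upper end of this range.

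The course differed with the call for the second day, as a description of medians. The medians of those that fell were 57.6% of 0 h after 24 h, 34.1% after 48 h, 25.4% after 72 h and 43.1% after 96 h. The 32 without a call were at 44.6%, 39.4%, 29.5% and 59.8% at these times. The 6 that rose, by 0.37 to 0.92 on the log2 scale, went from 29.8% after 24 h up to 41.6% by 48 h, down to 27.7% by 72 h and up again to 55.5%. The median level of these 6 at 0 h was 93.0 CPM, against 7.77 CPM in the members that fell. Of the 6, 3 had at least 100 CPM at 0 h, while another had 7.34 CPM. By the share regained, which is set by values the rule used, 14 of 28 members that regained 50% or more fell on the second day and 53 of 65 that regained under 25%, beside 31.9% of all genes, and these subsets were not compared by a test.

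The level at 48 h, which the rule left free, lay between the 72 h and 24 h means in 111 of 139 members. It was below the 72 h mean in 14. At 48 h, 33 members were still at 50% of 0 h or more and 45 at 25% or less. By 96 h, 112 members stood above their own 48 h mean and 39 above their 24 h mean, so most members ended above 48 h and below 24 h. The median coefficient of variation between libraries at 48 h was 14.3% over all members and 9.96% over all genes tested. Of members between 1.23 and 8.91 CPM at that time, it was 12.0% (69 genes), against 13.6% in the 3103 other genes of the same range.

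Whether the last-day rise was repeated in other libraries was asked by applying the rule to the means of one batch and reading the other. The filter on low counts and the scaling of the CPM values still came from all 20 libraries. In batch 1 alone 213 genes met the rule. In batch 2 alone, their median log2 change from 72 h to 96 h was 0.44, against 0.78 in the batch that chose them and 0.01 over all genes in batch 2. It was above 0 in 198 (93%), where 51.5% of all genes were, and the ratio reached 1.5 again in 64 (30%), where 7.74% of all genes did. The test in batch 2 alone, with 2 libraries per time point, called 44 of the 213 higher (20.7%) and 0 lower (edgeR adjusted p under 0.05), against 8.7% of all genes called higher and 8.32% lower.

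The reverse choice gave a like picture. In batch 2 alone 171 genes met the rule. Their median log2 change on the last day was 0.48 in batch 1, against 0.76 in batch 2 and 0.00 over all genes in batch 1, and it was above 0 in 149 (87.1%), where 50.2% of all genes were. Batch 1 alone called 74 of the 171 higher (43.3%) and 0 lower, against 17% of all genes called higher and 15.2% lower. In both directions the rise was smaller in the libraries that had not chosen the genes.

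**Figure D5:**
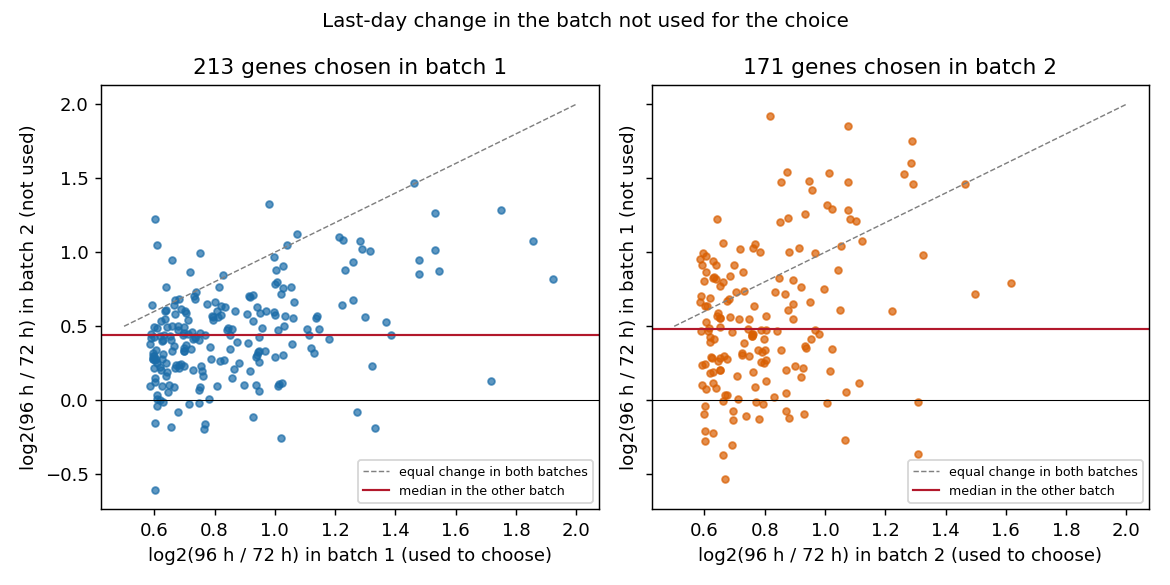
Log2 ratio of 96 h to 72 h in the batch that chose the genes (x axis) and in the other batch (y axis), 1 point per gene, for 213 genes chosen in batch 1 and 171 chosen in batch 2. The red lines are the medians in the batch not used, 0.44 and 0.48, and most points lie below the dashed line of equal change.

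Genes that fell without meeting the rule served as the comparison. Of 1831 such genes in batch 1, 4.64% were called higher on the last day in batch 2, with a median log2 change of -0.07. Of 1958 such genes in batch 2, 15.9% were called higher in batch 1, with a median of -0.01. The call in batch 2 moved with single libraries. Fewer of the 213 genes were called without replicate C or D at 0 h, 48 h or 72 h, or without C at 96 h. The largest drops came without C or D at 72 h and without C at 96 h. More were called without D at 96 h or without C or D at 24 h. Each of these fits leaves a single library at a time point. The share of all genes called was not computed in them, so no counts are given here.

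The earlier fall was repeated more fully. All 213 genes chosen in batch 1 were called lower at 72 h than at 0 h in batch 2, against 36.3% of all genes, with a median of -1.72 where the choosing batch had -1.93. Of the 171 chosen in batch 2, 152 (88.9%) were called lower in batch 1, against 38.1% of all genes, with medians of -1.39 and -1.77. The ratio was at or under 0.5 again in 184 of 213 genes (86.4%) in batch 2, against 17.4% of all genes there. In batch 1 it was so in 120 of 171 (70.2%), against 16.5% of all genes.

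The lists chosen in single batches shared 55 genes, which are 25.8% of the first and 32.2% of the second. Of the 139 members, 115 met the rule in batch 1 alone, 75 in batch 2 alone, 55 in both and 4 in neither. The 96 h/72 h ratio was above 1 in both batches for 138 members and at least 1.5 in both for 71. These counts describe libraries the rule used, and nothing is read from them. The median ratio was 1.91 in batch 1 and 1.55 in batch 2, and 112 members had the higher ratio in batch 1. Batch 2 holds the replicate D that was low at 96 h.

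A formal test of the product of batch and time called 0 of 139 members, against 0.00683% of all genes (edgeR adjusted p under 0.05). At an unadjusted p under 0.05 it passed 15 members (10.8%), against 9.72% of all genes, and DESeq2 called 0 members. Without the filter on low counts it called 25 members (18%), against 5.54% of all 20846 genes with any count and 7.88% of the 14636 that pass the filter. The count for batch by time thus depends on that filter, and these shares were not compared by a test. The level itself, over all times, was higher in batch 2 for 8 members (5.76%) and lower for 5 (3.6%), against 10.9% and 8.36% of all genes, with a median log2 difference of -0.02. The count of 13 members ran from 7 to 19 without single libraries and was 22 without the filter, and the shares were not compared by a test. It was 7 without replicate B at 48 h or A at 72 h, and 8 without B at 0 h, C at 48 h or C at 72 h.

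Steps that the rule used are given for completeness, with nothing read from them. From 72 h to 96 h, 128 of 139 members were called higher and 11 were not called, against 19.3% of all genes. From 0 h to 72 h all 139 were called lower, against 40.6%, and all 4 libraries at 72 h lay below all 4 at 0 h in every member, against 35.6%. From 72 h to 96 h the libraries did not overlap in 106 members, against 14.7%. From 0 h to 24 h, 112 members were called lower, against 34.5%, and 4 higher, against 31.7%. At 96 h, 130 members were called lower than at 0 h, against 40.2%, so 9 were not distinguished from their starting level, which does not show that they had returned to it.

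The edge of the rule cut through a continuous range. The lowest 96 h/72 h ratio among members lay at the limit itself, and the nearest gene outside had 1.497. Between 1.5 and 1.6 lay 44 members, and 74 genes that met every other condition lay between 1.4 and 1.5. In all, 1894 genes failed the rebound condition alone, 67 the starting level alone, with nearest values of 2.00 inside and 1.99 outside, and 33 the fall alone, with 0.496 inside and 0.507 outside. A further 4 genes failed because 96 h was above 0 h, with 1.03 outside and 0.983 inside. Another 4 failed because 96 h reached 2 times 24 h, with 2.01 outside and 1.94 inside, and 0 failed the limit on the first-day rise alone.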

How the data were processed

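PolyA RNA of 20 libraries was analysed, 4 at each of 5 time points. The deposited table holds whole-number read counts for each gene that were not normalized, with totals that differ between libraries. Per the submitters' processing notes, STAR 2.7 and featureCounts were used with genome build bosTau9. The sources used here do not give their parameters, strand setting or annotation. Genes that share reads with near-identical copies or overlap others could not be told apart by identifier. All 20 columns were matched by name, and 0 pairs were identical.

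Genes were kept by filterByExpr of edgeR 4.0.16 in R 4.3.3 (minimum count 10, minimum total 15), scaled by TMM and fitted with a robust quasi-likelihood model with time point and batch as terms. Tests were two-sided F-tests with Benjamini-Hochberg adjustment over 14636 genes, called under 0.05. Standard errors were derived from the F statistic. Held-out fits used the 10 libraries of one batch, while the filter and the CPM values for the choice came from all 20. The code was tested on simulated data. The alternatives were RLE scaling, library sizes alone, no filter, DESeq2 1.42.0, single libraries left out, single batches, the 2 time points alone, the replicate letter as a term, and other settings of the rule. The members and the lists chosen in single batches stayed fixed where calls were counted. The rule was run again where a number of members is given. The members, lists and tests were chosen with earlier results of these data known. The gene lists and the marker lists needed symbols and were not applied. The naming rule is given with the genes.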

Additional observations from a re-analysis of the deposited data

Results flagged for a closer look

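Among 35 sets of 4 replicate values checked by Dixon's test (the 4 named genes, and the members' summed level, share of counts and median level at each time), 2 held a library far from the other 3, and chance gives about 1 in 20. ENSBTAG00000035706 at 96 h was at 0.113 CPM in replicate C and between 0.541 and 0.562 CPM in the others. ENSBTAG00000017461 at 96 h was at 6.75 CPM in replicate A and between 3.62 and 3.97 CPM in the others. Over all 139 members and 5 time points, 39 of 695 sets (5.61%) passed the same limit.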

How the results depend on the processing

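The alternative without replicate D at 24 h and 96 h was chosen after seeing the data. The number of members stayed within 1.5 times 139 with RLE scaling (128, all among the 139), library sizes alone (145, with 98 shared), no filter (136), 0 added to the means (158), medians in place of means (147, with 114 shared), batch 2 alone (171) and without single libraries (131 to 169, with at least 115 shared). It was 213 in batch 1 alone, 56 with 1 added to the means, 24 where 96 h had to reach 2 times 72 h and 65 where 72 h had to be at most 25% of 0 h. The last 2 are narrower by construction. Adding 1 moves each ratio of means toward 1 by arithmetic, and 55 of those 56 genes were among the 139. The cause of the count of 213 was not tested.

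Calls of a fall from 24 h to 48 h ranged from 72 members (batch 2 alone) to 122 (library sizes alone), against 101. Without single libraries they ran from 89 to 105. Beside the 122, the median log2 change over all genes was -0.32, against -0.03 in the main fit. The share of all genes called was not computed in these refits, apart from batch by time without the filter. No filter on low counts gave 22 members that differed between batches (against 13), 25 for batch by time (against 0) and 76 for the last-day rise in batch 2 (against 44). The cause was not tested. Without single libraries these were 7 to 19, 0 to 2 and 13 to 73. The count of 13 fell to 8 without replicate B at 0 h or replicate C at 48 h or 72 h, and to 7 without replicate B at 48 h or replicate A at 72 h. Batch by time called 1 member without replicate C at 24 h and 2 without replicate C at 96 h. In the held-out fits of a single batch, leaving out a library leaves a single library at its time point. The range for the last-day rise in batch 2 comes from such fits, with no share of all genes beside it. It is given as a record alone and nothing is read from it. The counts of the separate fits are not given.

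Replicate letters were not treated as pairing libraries across times. Deviations of same-letter libraries had a median correlation of 0.14 (-0.35 to 0.53), 22 of 40 pairs were over 0.1, and the best match was the own letter for 7 of 20 libraries. With the replicate block, 100 members fell from 24 h to 48 h. No log2 change of the named genes turned its sign. At 72 h the fewest counts of a member over 4 libraries was 9, where counting error alone is large.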
